A study of Mus musculus with 4 samples.

Results

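Acetyltransferases move the acetyl group of acetyl-CoA onto lysines of histones and other proteins, and the 10 genes described here encode 9 of these enzymes and a synthetase that makes acetyl-CoA from acetate. Ep300 and Crebbp encode the paired co-activators p300 and CBP. Kat2a and Kat2b encode the enzymes known as GCN5 and PCAF, and Kat5, Kat6a, Kat6b, Kat7 and Kat8 encode the MYST family. Acss2 encodes the acetyl-CoA synthetase of the cytosol and nucleus. The genes were chosen by name, for their use or supply of acetyl-CoA, and every stretch of open chromatin from 5 kb before to 5 kb after each gene was taken. This gave 88 regions of 137553 in all, over 10 of 49550 genes of the gene table on the autosomes and X.

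The data came from ATAC-Seq, in which a transposase cuts accessible DNA so that peaks of fragment ends mark open chromatin. There were 2 libraries from control mice and 2 from Cpt1a-KO mice, which lack the carnitine palmitoyltransferase that brings long-chain fatty acids into mitochondria for oxidation. In the study, KO animals carried Cpt1a fl/fl and Vav1-Cre+, a driver active throughout the blood lineages and therefore not limited to stem cells, on a C57BL/6, CD45.2 background, and adults of both sexes were used. The study used Cpt1a fl/fl mice as controls, so both groups carried the floxed alleles, whereas the labels give the control genotype as WT, the tissue as bone marrow HSCs and the cell type as ltHSC, and the study speaks of HSPCs. The study's methods describe enrichment of c-Kit+ bone marrow cells on beads before sorting. How many animals stand behind a library is not given in the sources used here, so the spread between libraries may be technical.

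Fatty acid oxidation ends in acetyl-CoA inside the mitochondrion. Acetyl groups reach the nucleus by way of citrate, which ATP citrate lyase splits outside the mitochondrion, or by way of acetate and ACSS2. Histone acetylation by p300, CBP, the GCN5 family and the MYST family is known to accompany active enhancers and promoters, and several of these enzymes are known to be needed for normal hematopoietic stem cells. The comparison asked whether the open chromatin at the genes for these enzymes differed between the genotypes.

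The authors' lists hold 240940 to 277594 peak summits per library and no read counts, so read depth is unknown and a missing peak cannot be told apart from a shallower library. Overlapping intervals were merged into regions, and a region was kept if at least 2 libraries had a peak in it. The strength of a region was its percentile within a library, from 0 for the weakest to 100 for the strongest, by the authors' fold of summit signal over background. An exact two-sided permutation test of 2 against 2 libraries cannot give a p below 0.333, so no region could pass 0.05 on its own. Of the stem cell markers, 9 of the 9 with a listed start had a start region in all 4 libraries, Kit among them, and so did 0 of 4 T cell, 3 of 3 B cell, 2 of 3 erythroid, 3 of 4 neutrophil and monocyte, 3 of 3 megakaryocyte and 1 of 3 other-tissue markers. The median start percentile of the stem cell markers was 85.4 in both controls and 87.7 and 85.3 in KO. Slamf1 (47.4 and 54.2 against 71.9 and 55.7) and Tal1 (85.4 in both controls against 88.8 and 88.5) were higher in KO. The other stem cell markers with a listed start overlapped. Medians of other blood cells differed more. For B cells they were 15.5 and 33.3 in controls against 45.4 and 48.3 in KO, but each of the 3 genes overlapped between the genotypes. For neutrophils and monocytes they were 66.3 and 50.8 against 32.7 and 45.3, and the control 1 median lacks Elane, which had no start peak there. Itgam was higher in KO (66.3 and 48.9 against 76.4 and 71.8), S100a8 was lower (76.4 and 60.6 against 37.7 and 49.8) and Mpo overlapped. Smaller gaps were seen for erythroid (95.9 and 95.2 against 93.6 and 93.3) and megakaryocyte markers (69.6 and 74.3 against 66.0 and 68.6). Here the genes did not all overlap. Klf1 (98.7 and 97.3 against 96.5 and 95.6), Epor (93.2 and 93.1 against 90.7 and 90.9), Pf4 and Gp9 were lower in both KO libraries, and Itga2b overlapped. The part of other cell types in the differences of the 10 genes was not tested. The targeted gene Cpt1a kept a start region in all 4 libraries, at percentiles 76.3 and 73.7 in controls and 76.5 and 82.4 in KO. The lists do not show whether the floxed part of the gene was lost.

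The start sequences of 5 genes are shown first, because 4 of them shared a motif that few promoters hold and the fifth lay under the weakest start region. They are RefSeq sequences (GRCm38.p6, which matches mm10), 300 bases long, from 250 bases before to 50 after the outermost listed start, printed in the direction of transcription. Capitals mark matches, on either strand, to GGGCGG (the GC box), CCAAT (the CCAAT box), CCGGAAG (the core of ETS family sites) and CACGTG (the E-box). Kat6a has no entry in the promoter table.
Kat5, chr19:5610045-5610344, minus strand: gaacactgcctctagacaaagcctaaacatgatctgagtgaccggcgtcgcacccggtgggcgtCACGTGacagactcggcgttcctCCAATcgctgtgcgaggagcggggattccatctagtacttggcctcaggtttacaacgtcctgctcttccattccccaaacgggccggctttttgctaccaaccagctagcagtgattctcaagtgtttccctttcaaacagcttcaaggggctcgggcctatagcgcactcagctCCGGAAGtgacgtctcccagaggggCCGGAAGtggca
Kat7, chr11:95310197-95310496, minus strand: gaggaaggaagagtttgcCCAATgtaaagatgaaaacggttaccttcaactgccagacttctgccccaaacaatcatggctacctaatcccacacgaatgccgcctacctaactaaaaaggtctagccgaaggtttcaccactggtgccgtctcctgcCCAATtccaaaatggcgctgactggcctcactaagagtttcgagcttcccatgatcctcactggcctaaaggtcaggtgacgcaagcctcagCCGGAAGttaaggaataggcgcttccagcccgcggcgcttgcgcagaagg
Kat8, chr7:127912267-127912566, plus strand: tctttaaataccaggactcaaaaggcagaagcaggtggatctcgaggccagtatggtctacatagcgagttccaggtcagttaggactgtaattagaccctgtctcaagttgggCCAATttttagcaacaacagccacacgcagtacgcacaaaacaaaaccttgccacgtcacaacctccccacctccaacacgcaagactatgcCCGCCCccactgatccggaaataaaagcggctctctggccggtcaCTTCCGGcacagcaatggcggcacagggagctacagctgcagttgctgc
Acss2, chr2:155517793-155518092, plus strand: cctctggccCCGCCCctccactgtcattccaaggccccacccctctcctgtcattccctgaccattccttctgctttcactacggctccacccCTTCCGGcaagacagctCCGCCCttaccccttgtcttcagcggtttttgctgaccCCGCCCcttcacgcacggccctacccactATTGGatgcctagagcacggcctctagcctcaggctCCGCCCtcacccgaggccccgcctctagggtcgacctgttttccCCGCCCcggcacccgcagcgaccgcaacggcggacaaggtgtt
Kat6b, chr14:21499520-21499819, plus strand: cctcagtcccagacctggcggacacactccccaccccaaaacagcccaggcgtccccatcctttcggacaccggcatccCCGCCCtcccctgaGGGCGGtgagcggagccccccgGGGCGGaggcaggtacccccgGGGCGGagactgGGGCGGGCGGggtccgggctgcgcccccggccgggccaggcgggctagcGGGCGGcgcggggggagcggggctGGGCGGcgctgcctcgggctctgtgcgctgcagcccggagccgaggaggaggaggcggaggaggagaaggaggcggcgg

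The motif CCGGAAG stood in 4 of the 9 start sequences searched, those of Kat5, Kat7, Kat8 and Acss2, against 9.21% of 26794 promoters of the same length. In Kat5 it occurred at 13 and again at 38 bases after the start, in Kat7 it began at the start base itself (0), in Kat8 it began 1 base after the start on the opposite strand, and in Acss2 it lay at -157 on the opposite strand. GGGCGG was found in 5 of 9, namely Ep300, Crebbp, Kat6b, Kat8 and Acss2, against 36.2% of all promoters, with 8 matches in Kat6b alone and 5 in Acss2. Neighbouring GGGCGG matches overlapped in Crebbp and Kat6b. CCAAT was found in 5 of 9 (Kat2b, Kat5, Kat7, Kat8 and Acss2) against 38.2%, and CACGTG in 1 of 9 (Kat5) against 7.30%. TATAAA (the TATA box), TGACGTCA (the cAMP response element) and the 10-base NRF1 motif were found in 0 of 9, against 14.2%, 1.87% and 0.989% of all promoters. GC content ran from 47% in Kat2b to 82% in Crebbp with a median of 57%, against 52.7% over all promoters, and the count of CpG dinucleotides had a median of 19 against 7. Kat2a held no match to any of the 7 motifs. The comparison was with all promoters, not with those of like CpG count or openness. These are matches of letters, and no binding was measured.

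All 9 genes with a listed start had a region within 1 kb of it in all 4 libraries. Over the 26794 genes with a listed start, 52.4% did. For Kat6a the region over the lowest base of the gene (chr8:22858811-22860280) was used, and it also held a peak in every library. No region of the 10 genes was gained in KO at a start, and none was lost there. Of the 88 regions, the 15 within 1 kb of any gene's listed start were all held by all 4 libraries, against 79.4% of such regions across the genome.

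**Figure D1:**
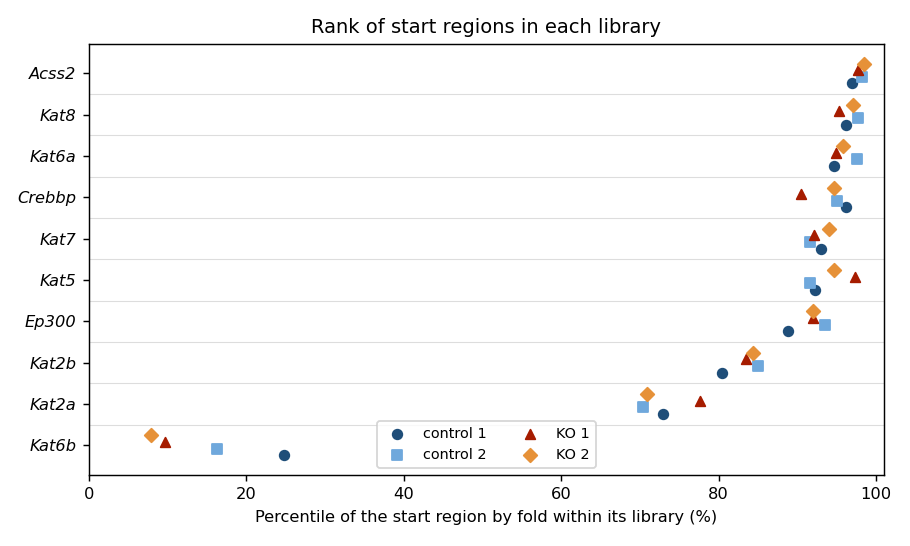
Percentile (x axis, %) of the start region of each of the 10 genes (y axis) in the 4 libraries, by the authors' fold within the library. Each symbol is 1 library, and 8 of the genes sit above 80 in every library, with Kat2a between 70.4 and 77.6 and Kat6b between 7.90 and 24.8. For Kat6a the region over the gene's lowest base is plotted.

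Acss2, the only gene of the 10 that makes acetyl-CoA, had the strongest start region. It spanned 902 bp (chr2:155517516-155518417) and reached percentile 97.0 in control 1, 98.2 in control 2, 97.7 in KO 1 and 98.5 in KO 2. The genotypes overlapped, and the KO mean of 98.1 ± 0.543 exceeded the control mean of 97.6 ± 0.914 (SD, n = 2 each) by 0.48 percentile points. Its folds ran from 18.6 to 20.1, and its strongest summit lay at -55 to -59 from the start in all 4 libraries, inside the printed sequence and between the CCAAT match at -73 and the GGGCGG match at -37.

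Kat8 encodes MOF, which acetylates histone H4 at lysine 16. Its start region (chr7:127912038-127912973) reached 96.2 and 97.7 in controls and 95.3 and 97.0 in KO. The ranges overlapped, with a difference of -0.75. The strongest summit lay at -27 to -54, so that the CCGGAAG match at 1 was on its transcribed side in every library.

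Kat7 encodes HBO1, which acetylates histone H3 at lysine 14. Its start region (chr11:95309514-95310618) also covers the listed start of Gm11520. The percentiles were 93.1 and 91.7 in controls and 92.1 and 94.0 in KO, so the genotypes overlapped. The strongest summit lay at -34 in control 1, but 541, 531 and 534 bases inside the gene in control 2, KO 1 and KO 2. The library that stood apart in position was therefore a control, and the genotypes did not separate.

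Kat5 encodes TIP60, the acetyltransferase of the NuA4 complex. Its start region (chr19:5609480-5610456) reached 92.3 and 91.6 in controls and 97.3 and 94.6 in KO. Both KO libraries lay above both controls, by 4.01 points on the means (96.0 ± 1.88 against 91.9 ± 0.485, SD, n = 2 each), and the exact two-sided permutation p was 0.333, the smallest possible. Across all genes, 16.8% of start regions in all 4 libraries showed this order. The folds were 14.2 and 13.6 in controls and 19.1 and 15.2 in KO, while the −log10 q was 124 and 121 in controls, 166 in KO 1 and 85.9 in KO 2. The q values, which move with read depth, thus did not follow the order of the folds, and with percentiles by −log10 p in place of the fold the difference was 1.54. It was 2.32 without KO 1, 2.57 without control 2 and 9.51 with the 100000 strongest summits. Each was positive, though each setting has its own percentile scale. The summits lay 22 to 38 bases after the start, over or beside the CCGGAAG pair printed above.

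Kat6a and Kat6b encode MOZ and MORF, paralogs that acetylate histone H3, and MOZ is known to be needed for hematopoietic stem cells. The region over the low end of Kat6a was among the stronger ones, at 94.6 and 97.6 in controls and 94.9 and 95.8 in KO, with overlapping genotypes. The region over the listed start of Kat6b (chr14:21499718-21499926) was by far the weakest of the 10, being only 209 bp wide. It reached 24.8 and 16.2 in controls and 9.64 and 7.90 in KO, so that both KO libraries were below both controls, with a difference of -11.74 points (8.77 ± 1.23 against 20.5 ± 6.07, SD, n = 2 each, exact two-sided permutation p = 0.333). With the 100000 strongest summits the difference was -0.19. The region then lay at the floor of the lists, at 0.31 and 0.14 in controls and 0.05 and 0.02 in KO. At −log10 q of 5 or more no value could be had, since the KO 2 peak was at 4.43. The difference was -10.13 without control 1, -25.30 without control 2, -17.81 without KO 1 and -17.35 without KO 2. Each of these settings has its own percentile scale. The reverse order was seen in the neighbouring region of 1245 bp (chr14:21500172-21501416), which begins 402 bp from the start and was picked out after its values were seen. It reached 87.5 and 86.2 in controls and 90.7 and 89.8 in KO, a difference of 3.39. The narrow region over the GC-rich sequence printed above and the broad one beside it thus differed between the genotypes in opposite directions. The peak intervals covered 163, 108, 207 and 114 bp of the narrow region in control 1, control 2, KO 1 and KO 2.

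Ep300 and Crebbp had start regions that were broad and displaced upstream. For Ep300 (chr15:81584993-81586541, 1549 bp) the percentiles were 88.8 and 93.6 in controls and 92.0 in each of the KO libraries. The KO values fell between the controls. For Crebbp (chr16:4212967-4214518, 1552 bp) they were 96.1 and 95.02 in controls and 90.4 and 94.7 in KO, so both KO libraries lay lower, with a difference of -3.04 points (92.5 ± 2.98 against 95.6 ± 0.796, SD, n = 2 each, exact two-sided permutation p = 0.333), although KO 2 lay closer to the controls than to KO 1. Without KO 1 the difference was -0.29, and KO 2 lay between the controls. Without control 1 it was 5.12, but the merged region there shrank to 644 bp around the start. That shorter region no longer held the strongest summits, and it stood at 63.2 in control 2 and at 60.0 and 76.6 in KO. The value thus describes a weaker peak and does not show whether the main region depends on control 1. Across all genes, 19.2% of start regions in all 4 libraries had both KO percentiles below both controls. The strongest summit lay at -837 to -1011 from the listed start of Ep300 and at -716 to -724 from that of Crebbp, outside the 300 bases of the promoter table. The peaks of the other 7 genes with a listed start were centred within 59 bases of it, apart from the Kat7 summits given above.

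The GCN5 family had the lowest start percentiles after Kat6b. For Kat2a (chr11:100711984-100712566) they were 72.9 and 70.4 in controls and 77.6 and 70.9 in KO. For Kat2b (chr17:53566689-53568699, at 2011 bp the widest start region) they were 80.4 and 85.0 in controls and 83.5 and 84.4 in KO. In both genes the genotypes overlapped, with differences of 2.57 and 1.23 points. The summits lay 9 to 23 bases after the start in both.

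In all, 3 of the 9 genes with a listed start had start percentiles that did not overlap between the genotypes, with Kat5 higher in KO and Crebbp and Kat6b lower. Over all genes 16.8% were higher and 19.2% lower, so 3 of 9 is close to the background. The median KO minus control difference over the 9 was 0.66 points, against -0.11 over the start regions of 12182 genes in all 4 libraries. The median start percentile of the 9 genes was 92.3, 91.7, 92.0 and 94.0 in control 1, control 2, KO 1 and KO 2, against 90.04, 89.4, 89.9 and 89.5 over all those genes.

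Away from the starts the regions were less often shared. Of the 88 regions 49 (55.7%) held a peak in all 4 libraries, against 58.4% of all regions, 16 in 3 of them, and 14 in 1 library of each genotype. Regions present in both controls and in neither KO library numbered 9 (10.2%), against 6.05% of all regions. Regions present in both KO libraries and in neither control numbered 0, against 3.47%. Another 124 stretches had a peak in a single library and were not counted. Over 1 kb from every listed start lay 73 regions, which include the low-end region of Kat6a because that gene has no listed start. Of the 73, 34 (46.6%) were in all 4 libraries against 54.9% of such regions in the genome. Control-only were 9 (12.3%) against 6.57%, and 0 were KO-only against 3.77%.

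**Figure D2:**
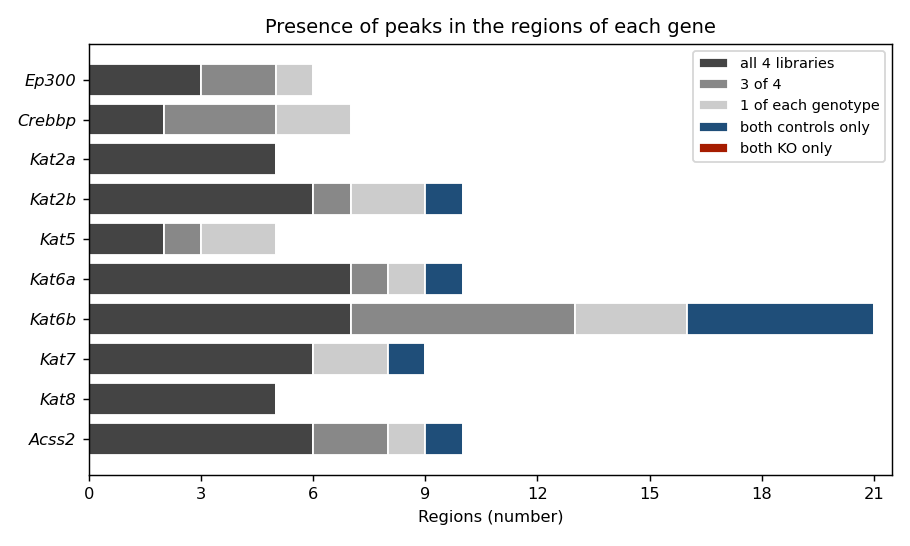
Number of regions (x axis) of each gene (y axis) by the libraries that held a peak there. Kat2a and Kat8 have all 5 of their regions in all 4 libraries, Kat6b has 5 of 21 in both controls only, and no gene has a region in both KO libraries only.

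The control lists held more of the 88 regions than the KO lists. Control 1 held 81 (92.0%), control 2 held 76 (86.4%), KO 1 held 66 (75%) and KO 2 held 67 (76.1%), against 86.4%, 85.1%, 82.9% and 78.3% of all regions. The control lists thus came first in the genome as well, and over the 88 regions the gap to both KO libraries was wider. For KO 2 the wider gap depended on Kat6b. Of the 21 regions of Kat6b, control 1, control 2, KO 1 and KO 2 held 19, 18, 14 and 11. Without Kat6b, the gap from the mean of the controls to KO 2 was not wider than in the genome. The gap to KO 1 still was. Of the 16 regions in exactly 3 libraries, 3 lacked control 1, 2 lacked control 2, 4 lacked KO 1 and 7 lacked KO 2, against 16.3%, 17.3%, 25.2% and 41.2% of such regions in the genome. KO 2 was the shortest list.

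Kat6b, the longest of the genes at 173 kb, held 5 of the 9 control-only regions and 21 regions in all. Of 807 genes with at least 20 regions, 9.05% had at least 5 only in control. The Kat6b regions lay 23.7 kb (chr14:21523342-21523533), 49.8 kb (chr14:21549409-21549707), 58.9 kb (chr14:21558579-21558804), 76.4 kb (chr14:21575997-21576249) and 167 kb (chr14:21666412-21666701) from the start, all in the gene body. The one at 23.7 kb reached percentiles 37.8 and 41.3 in the controls, and the one at 49.8 kb reached 43.8 and 35.7. The one at 76.4 kb was close to the bottom of both lists, at 4.97 and 6.13, and the one at 167 kb was unlike in the controls, at 54.5 and 6.13.

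The other 4 control-only regions were spread over 4 genes. They lay in Kat2b (chr17:53618332-53618647, percentiles 21.0 and 20.9), Kat6a (chr8:22898457-22898749, 21.0 and 18.4), Kat7 (chr11:95299040-95299193, 25.6 and 18.7) and Acss2 (chr2:155524467-155524654, 21.0 and 35.7). All 9 regions were inside gene bodies, and none was within 1 kb of a start. Their folds were low, 2.27 to 4.75 in control 1 and 2.37 to 3.85 in control 2, and their −log10 q reached only 5.68 and 3.68. The median percentile of the 9 was 21.0 and 20.9, against 18.5 and 18.3 for the control-only regions of the whole genome.

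The control-only count depended on how peaks were counted. With lists of equal length it was 6 of 80, and with a covered share of at least 0.5 it was 11 of 73, against 4.75% and 11.3% of all regions. The regions that lists of equal length no longer counted as control-only were all in Kat6b, at 58.9, 76.4 and 167 kb. With only the 100000 strongest summits of each library, 37 regions remained, 28 of them in all 4 libraries, 1 of them control-only (Kat6a, chr8:22935537-22935978, against 2.75% of all regions) and 0 KO-only (against 3.11%). When summits needed a −log10 q of 5 or more, 4 of 40 were control-only, against 7.02% of all regions, and these were none of the 9. They lay in Kat2b, Kat6a and, with 2 regions, Acss2, and each also held a weaker peak in at least 1 KO library.

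**Figure D3:**
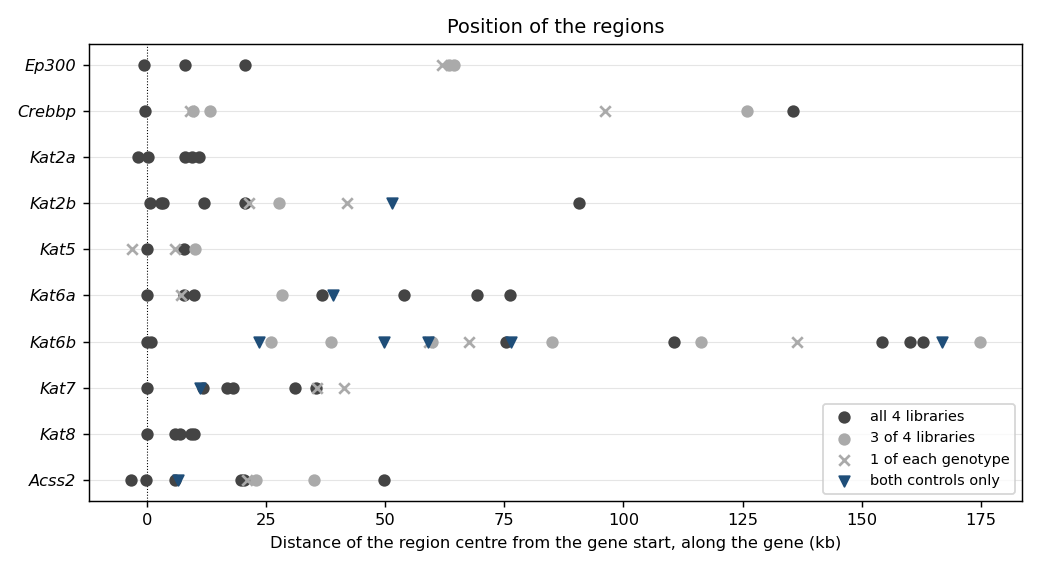
Distance of the centre of each region from the gene start, along the gene (x axis, kb), for each gene (y axis), with the symbol giving the libraries that held a peak. The regions at 0 are in all 4 libraries, and the 9 control-only regions lie 6.52 to 167 kb into the genes. For Kat6a the distance is from the lowest base of the gene.

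Regions held by all 4 libraries could be ranked in both genotypes. Of the 49, 7 (14.3%) had both KO percentiles above both controls, against 14.0% of all such regions, and 10 (20.4%) had both below, against 24.1%. Both shares were near the background. The median difference was 0.35 points (range, -31.95 to 18.25) against -1.17 over 80271 regions, whose 5th and 95th percentiles were -22.3 and 15.8. Compared with regions of like rank, 1 of the 49 fell under the central 90% of differences and 2 exceeded it, against 5.01% on each side over all regions. These were a region of Kat7 35.4 kb from the start (chr11:95274705-95274898), with 54.5 and 37.3 in controls and 6.94 and 20.9 in KO, the Kat5 start region, and a region in the body of Kat6a (chr8:22913401-22913569). The Kat6a region had the percentiles 30.3 and 64.0 in controls and 78.5 and 52.3 in KO, which overlap.

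**Figure D4:**
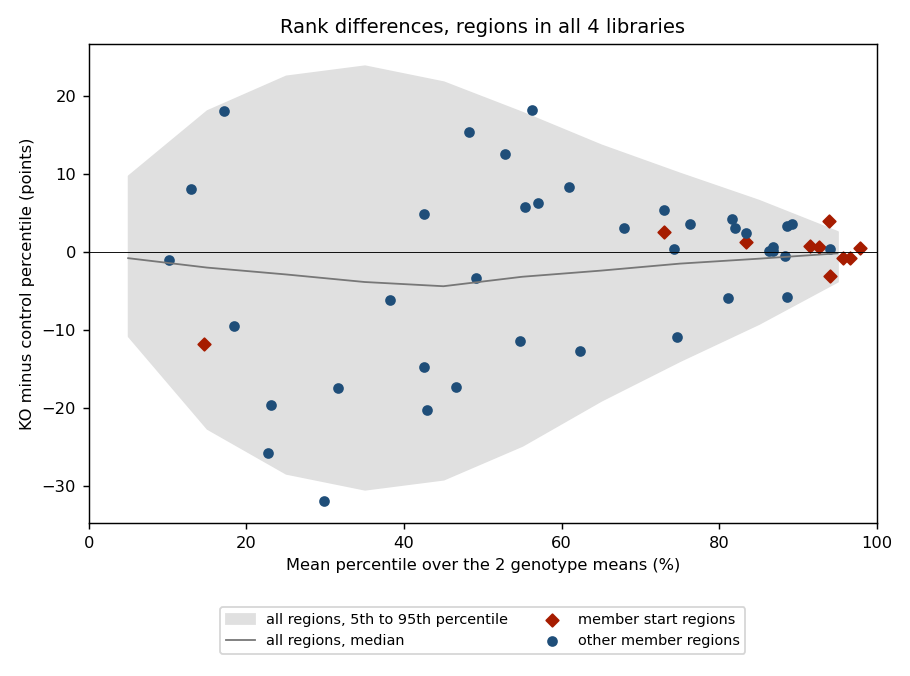
KO minus control percentile (y axis, points) against the mean of the 2 genotype means (x axis, %) for the 49 regions in all 4 libraries, with start regions as red diamonds (Kat6a by its low end) and other regions as blue circles. The grey band holds the central 90% of all regions of like rank, and 3 of the 49 points lie outside it.

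The regions inside the genes that both genotypes shared included strong ones. For each gene, the region over 1 kb from its start with the highest mean percentile was examined. In Ep300 it lay 20.6 kb into the gene (chr15:81606706-81606949), at 78.4 and 86.1 in controls and 79.7 and 89.6 in KO. In Kat2b it also lay 20.6 kb into the gene (chr17:53587106-53588052), at 87.6, 86.0, 87.7 and 86.0 in control 1, control 2, KO 1 and KO 2, a difference of 0.09. In Kat6a it lay 69.3 kb from the low end (chr8:22928499-22928935), at 87.9 and 84.7 in controls and 89.8 and 83.0 in KO. All 3 overlapped between the genotypes.

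In Kat6b the highest such region lay 160 kb from the start (chr14:21659752-21659947), at 88.5 and 86.3 in controls and 92.0 and 89.9 in KO, so that KO was higher by 3.58. In Kat8 it lay 10.0 kb from the start (chr7:127922020-127923010), at 76.2 and 84.0 in controls and 74.6 and 64.0 in KO, so that KO was lower, with a difference of -10.83. In Kat7 it lay 16.9 kb into the gene (chr11:95293097-95293578), at 90.6, 86.7, 83.6 and 92.7, and KO 1 and KO 2 lay on either side of the controls. In Kat2a it was in the flank 9.63 kb from the start (chr11:100702415-100703264), at 79.3 and 81.6 in controls and 87.0 and 80.0 in KO. Of these, the Kat6b and Kat8 regions were the ones whose genotypes did not overlap, in opposite directions.

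In Crebbp and Kat5 the highest region away from the start was at the start of another gene. The one beyond the far end of Crebbp (chr16:4077342-4078119) was the start region of Trap1, at 94.3 and 93.6 in controls and 93.4 and 95.2 in KO. The one beyond the far end of Kat5 (chr19:5601731-5602610) was the start region of Rnaseh2c, at 88.3 and 84.7 in controls and 88.8 and 85.6 in KO. Neither separated the genotypes, and neither can be assigned to one of the neighbours from these data. In Acss2 the highest one lay 35.1 kb into the gene (chr2:155552970-155553385) and had a peak in 3 libraries, at 52.5 and 69.8 in controls and 52.3 in KO 2, with none in KO 1. Apart from its start, then, Acss2 held only weaker regions, which stood at or under percentile 69.8.

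The remaining regions with separated ranks lay in both directions. In Kat2b the regions 3.04 kb and 12.0 kb from the start were lower in KO (-25.74 and -17.47 points), with folds of at most 4.29. In Kat6a the regions at 9.98 kb and 76.3 kb from the low end were lower (-12.67 and -11.45), and so was the Kat6b region at 163 kb (-14.75). Higher in KO were the Kat7 region at 11.9 kb (4.21 points), the Kat8 region at 5.88 kb (15.37), the Kat2a flank region at 8.15 kb (3.64) and the Acss2 region at 19.9 kb (8.05), whereas the Acss2 region at 5.91 kb was lower (-3.29). No gene had separated ranks in the same direction in all of its shared regions. Kat6b had 2 higher and 2 lower of 7, and Ep300 had 0 of 3 in either direction.

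The genes around these enzymes were counted in the same way. In acetyl-CoA supply (22 genes, such as Acly, Cs and the pyruvate dehydrogenase subunits), 18 of the 18 genes with a listed start had a start region in all 4 libraries. Of 72 regions, 5 (6.94%) were control-only and 0 KO-only. The 5 were 2 in Pdk2, a kinase that restrains pyruvate dehydrogenase, and 1 each in Acly, the citrate lyase, Dlat, a subunit of pyruvate dehydrogenase, and Acss1, the mitochondrial acetyl-CoA synthetase. The start region of Acly stood at 97.9 and 98.1 in controls and 99.4 and 98.7 in KO, so both KO libraries were higher. In Pdha1, Pdk3, Pdk4, Dlat, Acat2, Slc33a1 and Slc25a1 both were lower, as in Pdha1 at 98.9 and 98.0 against 95.8 and 92.9. The median start percentile of the list was 97.1 and 97.5 in controls and 96.8 and 95.7 in KO. Among 19 other acetyltransferases, 15 of the 15 with a listed start had a start region in all 4, and of 96 regions 3 (3.12%) were KO-only and 5 (5.21%) control-only. Naa25, a subunit of an N-terminal acetyltransferase, had 2 of the KO regions.

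Partners of the enzymes in their complexes made up 41 genes. Of their 265 regions 14 (5.28%) were KO-only and 22 (8.30%) control-only, and 35 of 37 listed starts were in all 4 libraries. The genes with the most regions of 1 genotype were Supt3 of the SAGA complex (2 KO-only and 4 control-only), Kansl1, a partner of MOF (2 and 3), and Brpf3, a partner of HBO1 (2 and 2). Of 104 regions of 10 acetyl-lysine readers, 2 (1.92%) were KO-only and 4 (3.85%) control-only, with 1 and 3 in Mllt3. In these 4 lists 0 genes had a start region in 1 genotype only. Set against 3.47% and 6.05% of all regions, the counts of each list are descriptions of these 4 libraries.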

How the data were processed

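ATAC-Seq peak lists of 2 control and 2 KO libraries were analyzed. The submitters' processing notes name Bowtie2, MACS2 and mm10, with versions not given in the sources used here. Peaks were called by the authors library by library. Per summit the deposited lists give a score, a fold (ratio of signal to background), a −log10 p and a −log10 q as the authors wrote them, and the summit position. The score was not used. The lists hold no counts, so depth and the precision it gives are not known. Each list has 253 to 492 rows whose summit is a chromosome position, which was read as one.

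Intervals on the autosomes and X overlapping by at least 1 bp were merged (Python 3.11.15, numpy 2.4.6, pandas 2.3.3, figures with matplotlib 3.10.9). A region was kept where 2 or more libraries had a peak, and was assigned to a gene within 5 kb of its body. A start region was the nearest region within 1 kb of the outermost 5′ start in the RefSeq promoter table (GRCm38.p6). The percentile of a region ranks its highest fold among the regions its library held. A region in all 4 libraries was called higher or lower in KO when both KO percentiles lay above or below both controls, and exact two-sided permutation tests over the 4 libraries were run per start region. The study tested reads with DiffBind and edgeR, which peak lists do not allow. Merging, presence and ranks were tested on simulated lists.

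Named were the 10 genes with their start regions, the highest region over 1 kb from each start, every region of 1 genotype only, and the 3 genes of each other list with the most such regions, ties included for acetyl-CoA supply. The acetyl-CoA supply genes whose start percentiles did not overlap between the genotypes were named as well, after their values were seen. Genes with 1 such region among the other acetyltransferases and the readers were not named, and a gene that this rule covers is not reported here. The genes, lists and rules were chosen with earlier results of these data known. Alternatives were a −log10 q of at least 5, lists of equal length (240881 summits), the 100000 strongest summits, ranks by −log10 p, flanks of 1 kb or none, a covered share of at least 0.5, and leaving out each library.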

Additional observations from a re-analysis of the deposited data

How the results depend on the processing

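No paired analysis was possible because the counts and medians come from no test, and for single start regions an exact sign test within 2 numbered pairs cannot go below p = 0.5. Regions only in KO numbered 0 except with lists of equal length and with a covered share of at least 0.5, which each gave 1, in Ep300. Regions only in control fell from 9 to 4 at a −log10 q of 5 or more and to 1 with the 100000 strongest summits, were 6 with lists of equal length and rose to 11 with the covered share. The q limit, the 100000 strongest summits and the covered share left 40, 37 and 73 regions, of which 28, 28 and 32 were in all 4 libraries, down from 49. Among those in all 4, the ones lower in KO fell from 10 to 3, 2 and 4, against 29.3%, 19.2% and 27.6% of all such regions. The ones higher in KO numbered 5, 7 and 5, against 10.4%, 19.1% and 11.9%. Leaving out a library means that a genotype with 1 library left holds every region of that library. The totals thus grow by construction, to 175 to 192 regions. The counts were 2 to 40 only in KO, 13 to 43 only in control and 52 to 56 in all remaining libraries. Of the last, 20 to 24 were higher and 9 to 17 lower in KO. Of all regions, 2.80% to about 21% were only in KO and 4.93% to 20.6% only in control. Of all those in every remaining library, 28.9% to 39.3% were higher and 27.1% to 37.7% lower. The median start difference was 0.23 to 1.03. Ranked by −log10 p, 5 of 9 start differences kept their sign, and the median was -0.18. With the 100000 strongest summits the median rose from 0.66 to 2.32, and 9 of 9 start differences kept their sign. Of the 9, 7 moved by more than the spread between replicates, Kat6b to -0.19, at the floor, and Kat5 to 9.51. Percentiles of these shorter lists are on another scale than the main ones. Leaving out a library, 7 to 9 of 9 kept their sign. Crebbp turned to 5.12 without control 1, where its start region was a shorter one without the strongest summits. Without read counts, a missing peak cannot be told apart from a shallow library.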
